A study of Mus musculus with 14 samples.

Results

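The positions of MLL1 and of WDR5 were compared within one treatment, in MAF9 cells, mouse bone marrow cells transduced with MLL-AF9, that had received MM-401. The members were all autosomal peaks of the MM-401 MLL1 list and the MM-401 WDR5 list, which came from the same peak caller, and the MM-401 list of histone H3 lysine 4 dimethylation (H3K4me2) gave their chromatin context. This gave 26845 MLL1 peaks and 17067 WDR5 peaks, 43912 of the 532629 peaks in the 10 lists of the series, set against 89778 H3K4me2 peaks. A further 500 MLL1 peaks, 206 WDR5 peaks and 2247 H3K4me2 peaks of the same lists lay off the 19 autosomes.

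All libraries were chromatin immunoprecipitations followed by sequencing (ChIP-seq), with 1 library per antibody and treatment and 4 inputs that were not analysed here. MAF9 cells were grown in IMDM with 15% serum and interleukin-3 (10 ng/ml) and took MM-401 at 20 µM over 2 days or the solvent DMSO. WDR5 and H3K4me2 lists of other conditions served as a yardstick for how far other maps of the same factor coincide. They came from the DMSO cells and from MAF9-transduced cells of the genotype MLL1 flox/flox, ER-cre+/- given 4OHT (400 nM, 2 days) or EtOH. Per the study, 4OHT was given to delete MLL1. None of these lists is a repeat of an MM-401 list, since treatment, and for the flox cells genotype, differed. Every group carried the MLL-AF9 fusion, and per the study the MLL1 antibody recognises a C-terminal piece of MLL1 that the fusion lacks. The lists hold positions and no heights or read counts, so read depth is unknown, and absence from a list means no call at that place.

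MLL1 is a histone methyltransferase for lysine 4 of histone H3, and it works inside a core complex with WDR5, RbBP5, ASH2L and DPY30. WDR5 holds the catalytic part of MLL1 in the complex through a short peptide motif of MLL1, is shared with the other members of the MLL family and is found in further chromatin complexes. H3K4me2 marks promoters and enhancers, and MM-401 is a compound that occupies the WDR5 pocket used by that MLL1 motif. No gene or sequence is named for any region, because only gene tables of another mouse build were at hand, and positions are in mm9, the build in the submitters' processing notes.

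The first comparison asked how often the positions coincided. MLL1 and WDR5 peaks rarely overlapped. A WDR5 peak shared at least 1 bp with 1012 of the 26845 MLL1 peaks, or 3.77% (95% Wilson interval 3.55 to 4.00%), and an MLL1 peak shared at least 1 bp with 1012 of the 17067 WDR5 peaks, or 5.93% (5.59 to 6.29%). The same 102 kb of sequence was covered by both, which was 2.997% of the length under MLL1 and 3.09% of the length under WDR5. These intervals count peaks only, treat neighbouring peaks as independent and say nothing of the spread between libraries, which could not be estimated with 1 library per antibody. No test between lists was run.

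MLL1 and WDR5 differed far more in their place in the H3K4me2 landscape. H3K4me2 overlapped 15025 WDR5 peaks, or 88.0% (87.5 to 88.5%), but only 11516 MLL1 peaks, or 42.9% (42.3 to 43.5%). Most MLL1 peaks, 15329 of them, therefore lay outside every H3K4me2 peak, against 2042 WDR5 peaks. The few MLL1 peaks at WDR5 were almost all inside H3K4me2, where most WDR5 peaks also lay, at 17.4 per 100 kb of H3K4me2. The part of this WDR5 density in the shares that follow was not tested. Of the MLL1 peaks in H3K4me2, 992 (8.61%, 8.12 to 9.14%) overlapped WDR5, whereas 20 of the MLL1 peaks outside did (0.130%, 0.0845 to 0.201%). For WDR5 the shares overlapping MLL1 were 6.63% (6.24 to 7.04%) inside H3K4me2 and 0.784% (0.483 to 1.27%) outside.

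Proximity was more frequent than overlap. With a gap of up to 500 bp allowed, 11.7% of MLL1 peaks had a WDR5 peak and 18.7% of WDR5 peaks had an MLL1 peak. At up to 2 kb these shares were 21.6% and 34.1%, and at up to 10 kb they were 36.4% and 54.8%. The higher share for WDR5 goes with its shorter list, since the numbers of peaks were close on both sides. They were 3151 MLL1 and 3195 WDR5 peaks at up to 500 bp, 5789 and 5827 at up to 2 kb. At up to 10 kb they were 9762 and 9360. Proximity again followed H3K4me2: 46.5% of MLL1 peaks inside H3K4me2 had WDR5 within 2 kb, against 2.81% of those outside. The part of WDR5 density in this contrast was not tested either. The MLL1 peaks in H3K4me2 that did not overlap WDR5 lay a median of 4050 bp from the nearest WDR5 peak (interquartile range 700 to 24150 bp), while the 15309 such peaks outside H3K4me2 lay a median of 61725 bp from one (19200 to 201750 bp).

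**Figure D1:**
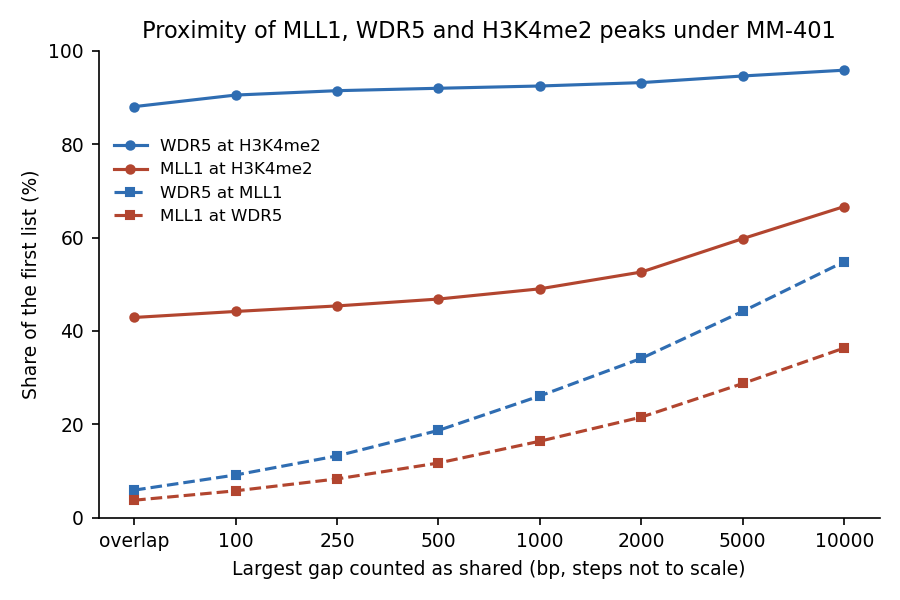
Share of MLL1 (red) and WDR5 (blue) peaks under MM-401 with a peak of the partner list (dashed) or of H3K4me2 (solid) within the gap on the x axis, in bp with unequal steps, 1 library per list. WDR5 sits at H3K4me2 at every gap (88.0% at overlap), MLL1 less so (42.9%), and the overlap of MLL1 and WDR5 starts at 3.77% and 5.93%.

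Where MLL1 and WDR5 did overlap, the calls more often overlapped in part than lay one inside the other. The 1012 MLL1 and 1012 WDR5 peaks formed 1035 overlapping pairs that shared a median of 75 bp (interquartile range 50 to 125 bp), with their centres a median of 75 bp apart. The MLL1 peak lay wholly inside the WDR5 peak in 27.4% of pairs (24.8 to 30.2%), the WDR5 peak inside the MLL1 peak in 14.8% (12.8 to 17.1%), and in 58.8% (55.8 to 61.8%) each extended past the other. Both calls had identical ends in 11 pairs.

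Both kinds of peak were narrow, and MLL1 peaks were the narrower. The median width was 125 bp for MLL1 (interquartile range 100 to 150 bp) and 150 bp for WDR5 (100 to 250 bp). The peak caller works in steps of 25 bp, so these medians are 1 step apart, and the lists parted mainly in their upper tails. Widths of 75 to 100 bp, the narrowest calls, made up 47.4% of MLL1 peaks and 28.1% of WDR5 peaks, and widths over 300 and up to 500 bp made up 0.946% and 10.9%. In total length the lists were close, with 3.40 Mb under MLL1 and 3.30 Mb under WDR5.

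Wider peaks of either factor more often overlapped the partner and H3K4me2. MLL1 peaks of 75 to 100 bp overlapped WDR5 in 2.07% of cases, those over 200 and up to 300 bp in 11.5% and those over 300 and up to 500 bp in 18.9%. For WDR5 the shares with MLL1 in the same classes were 3.60%, 7.11% and 7.99%. H3K4me2 overlapped 32.8% of the narrowest MLL1 peaks, 87.4% of those over 200 and up to 300 bp and 99.2% of those over 300 and up to 500 bp. For WDR5 it was 79.4% in the narrowest and 97.2% in the last of these classes. The difference in H3K4me2 between the factors was thus widest among the narrowest calls and small over 300 and up to 500 bp, a class with 0.946% of MLL1 peaks. A wider peak also has more length to meet another one, and the part of this in the rise was not tested. The rise of MLL1 at WDR5 with width was present among MLL1 peaks inside H3K4me2 as well, from 6.04% (5.36 to 6.81%) at 75 to 100 bp to 19.05% (14.7 to 24.3%) over 300 and up to 500 bp. Nearness within 2 kb went the other way for WDR5: inside H3K4me2, 39.6% (38.04 to 41.1%) of the narrowest WDR5 peaks and 33.7% (31.6 to 35.9%) of those over 300 and up to 500 bp had MLL1 within that distance. For MLL1 the share with WDR5 within 2 kb rose between the same classes, from 44.3% (42.8 to 45.8%) to 60.7% (54.6 to 66.5%).

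**Figure D2:**
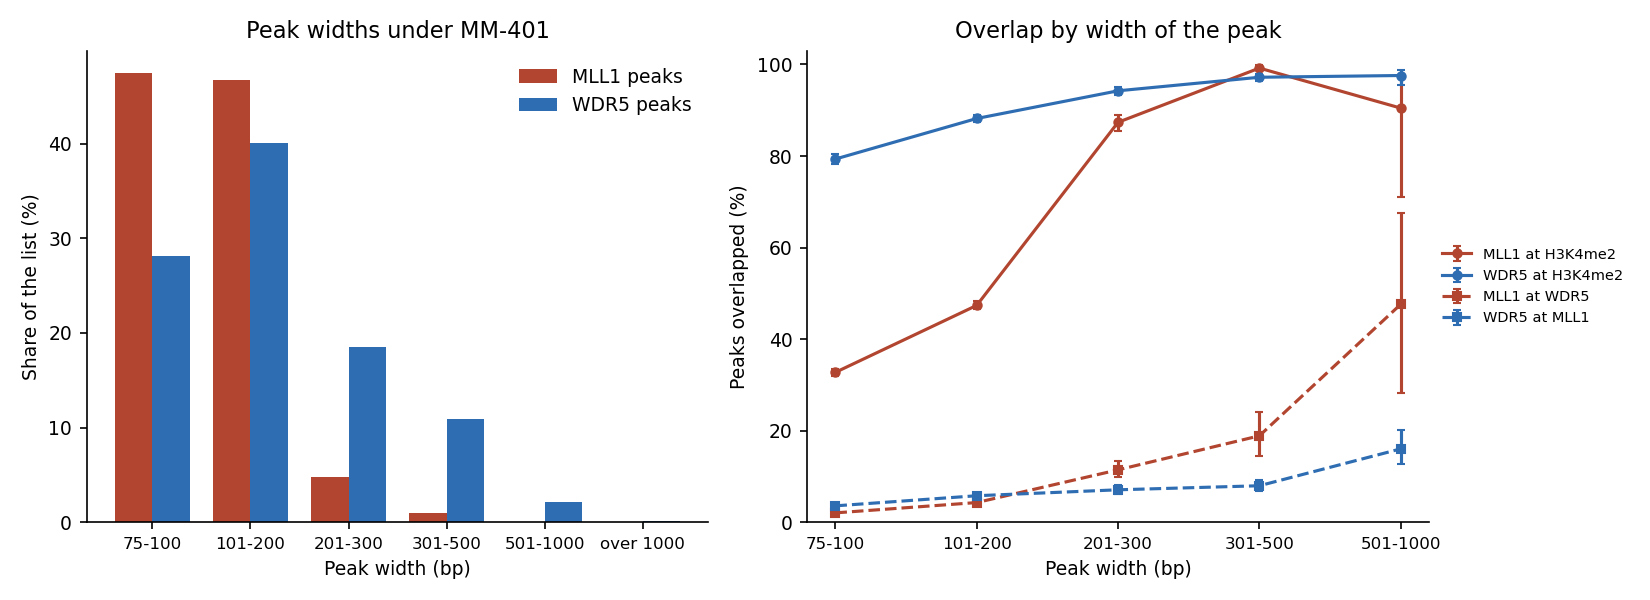
Left, share of the MLL1 (red) and WDR5 (blue) lists in each width class in bp, and right, share of peaks of each class overlapped by H3K4me2 (circles, solid) or by the partner (squares, dashed), with 95% Wilson bars and the class over 1000 bp left out. MLL1 rises from 32.8% to 99.2% at H3K4me2 between the class of 75 to 100 bp and that over 300 and up to 500 bp, while WDR5 starts at 79.4%.

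The peaks outside H3K4me2 also differed between the factors. WDR5 peaks outside H3K4me2 lay a median of 3525 bp from the nearest H3K4me2 peak, and 33.2% (31.1 to 35.2%) lay within 500 bp of one. MLL1 peaks outside lay a median of 15525 bp away, and 7.14% (6.74 to 7.56%) lay within 500 bp. A stretch of 500 bp or less between 2 neighbouring H3K4me2 peaks held 222 of the outside WDR5 peaks (10.9%, 9.59 to 12.3%) and 91 of the outside MLL1 peaks (0.594%, 0.484 to 0.728%). Among the peaks that touched H3K4me2, 10.6% of WDR5 peaks (10.1 to 11.1%) and 4.29% of MLL1 peaks (3.93 to 4.68%) crossed the edge of an H3K4me2 peak. Among the narrowest peaks the crossing shares were alike, 3.36% for WDR5 (2.83 to 3.98%) and 3.52% for MLL1 (3.01 to 4.13%). Over 200 and up to 300 bp they stood apart, 15.7% for WDR5 (14.4 to 17.0%) and 3.72% for MLL1 (2.77 to 4.99%). Wider WDR5 peaks, unlike MLL1 peaks of the same width, were thus often found across an H3K4me2 edge.

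The next comparison took H3K4me2 peaks as domains and asked what each held. Most H3K4me2 peaks, 72299 of the 89778 or 80.5% (80.3 to 80.8%), held neither MLL1 nor WDR5. WDR5 alone was held by 8665 (9.65%, 9.46 to 9.85%), MLL1 alone by 5093 (5.67%, 5.52 to 5.83%) and both by 3721 (4.14%, 4.02 to 4.28%). Domains with both were the widest, at a median of 3275 bp (interquartile range 2275 to 4925 bp), followed by MLL1 alone at 1900 bp (1175 to 2875 bp), WDR5 alone at 1625 bp (950 to 2500 bp) and neither at 300 bp (150 to 850 bp). The empty domains, though most numerous, were narrow and made up 51.6% of the H3K4me2 length.

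Domain width and content moved together. Both factors were held by 0.0296% of H3K4me2 peaks of 75 to 300 bp, 3.62% of those over 1 and up to 2 kb, 28.1% of those over 3 and up to 5 kb and 78.5% (72.2 to 83.7%) of the 195 peaks over 10 kb. WDR5 alone exceeded MLL1 alone up to 5 kb (18.9987% against 10.8% over 1 and up to 2 kb), and MLL1 alone exceeded WDR5 alone over 5 and up to 10 kb (21.4%, 19.4 to 23.6%, against 17.7%, 15.8 to 19.7%, intervals that just meet). The density of peaks rose with domain width up to a point. MLL1 went from 4.90 peaks per 100 kb of H3K4me2 at 75 to 300 bp to 15.03 over 2 and up to 3 kb, and WDR5 from 8.28 to 20.1. Beyond that MLL1 reached 21.3 over 5 and up to 10 kb and was at 20.5 over 10 kb, whereas WDR5 was at 20.2, 19.6 and 17.3 in the 3 widest classes. MLL1 was thus the sparser factor in H3K4me2 peaks of up to 5 kb and the denser in wider ones.

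**Figure D3:**
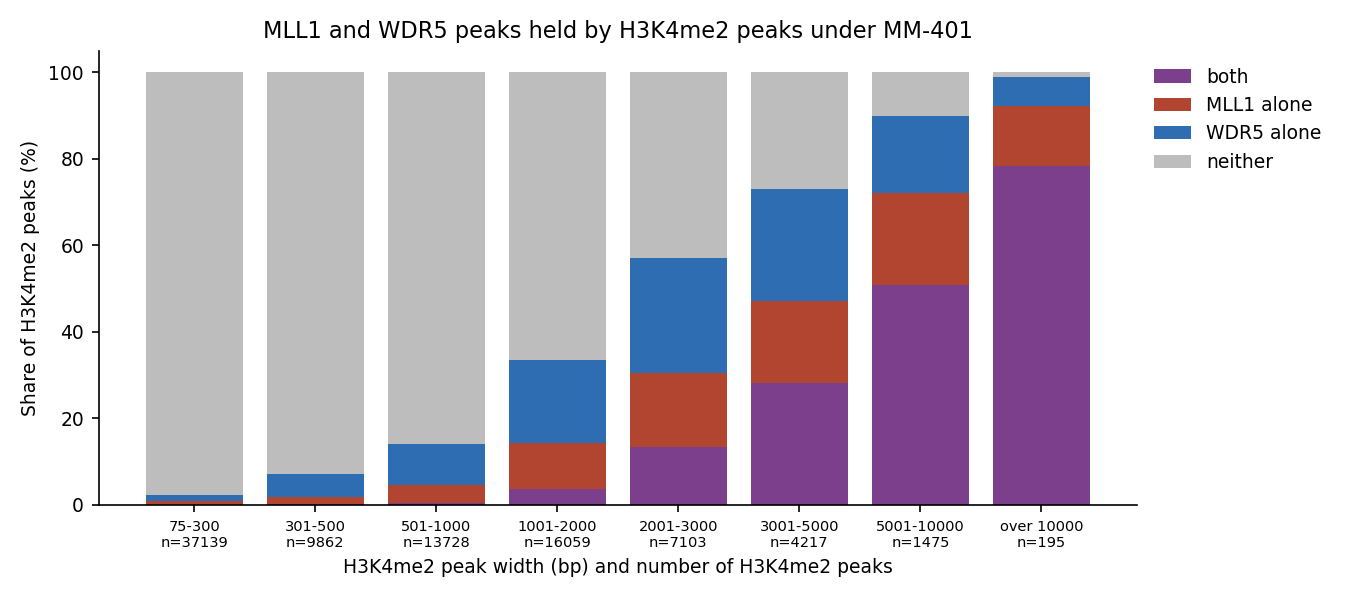
Share of H3K4me2 peaks under MM-401 that held both MLL1 and WDR5 (purple), MLL1 alone (red), WDR5 alone (blue) or neither (grey), by width of the H3K4me2 peak in bp, with the number of peaks under each bar. The share with both grows from 0.0296% in the narrowest class to 78.5% in the widest.

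The joint presence of MLL1 and WDR5 in a domain went largely with domain width. Over all domains, MLL1 was held by 30.0% of those with WDR5 and 6.58% of those without. Within width classes the ratio was smaller, and it varied. Over 1 and up to 2 kb MLL1 was held by 16.0% (14.9 to 17.2%) of the domains with WDR5 and 13.9% (13.3 to 14.5%) of those without. Over 2 and up to 3 kb the values were 33.4% (31.7 to 35.2%) against 28.4% (27.0 to 29.8%), and over 3 and up to 5 kb they were 52.0% (49.9 to 54.0%) and 41.6% (39.4 to 43.8%). In these 3 classes MLL1 was more frequent beside WDR5. In the narrowest domains, of 75 to 300 bp, where MLL1 was rare, the values were 2.13% (1.19 to 3.77%) against 0.806% (0.719 to 0.902%), and over 300 and up to 500 bp they were 3.54% (2.28 to 5.46%) against 1.75% (1.501 to 2.03%). Over 500 bp and up to 1 kb (5.08% against 4.44%) and over 10 kb (92.2% against 93.1% of 29 domains) the intervals met, and over 5 and up to 10 kb they met narrowly (74.2% against 67.96%).

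Most of the 3721 domains with both held no overlapping pair. An overlapping pair was present in 929 domains (24.97%, 23.6 to 26.4%), a pair at most 500 bp apart in 67.6% and a pair at most 2 kb apart in 95.4%. The choice of domains largely sets the last share, since both calls had to touch 1 H3K4me2 peak, of median width 3275 bp. In domains with 1 of each, the centre distance was a median of 22.1% of the domain width. Nearness beyond that set by domain width was not tested. Exactly 1 MLL1 and 1 WDR5 peak were held by 1915 of these domains, more MLL1 than WDR5 by 774 and more WDR5 than MLL1 by 812.

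The signed distance, the centre of WDR5 minus that of MLL1 in genome coordinates, was close to symmetric. For the 5520 MLL1 peaks in domains with both, the nearest WDR5 peak of the same domain lay at a median of 0 bp (interquartile range -587.5 to 575 bp), with 49.6% (48.3 to 51.0%) of the unequal positions on the side of higher coordinates. The size of the distance was a median of 587.5 bp (237.5 to 1212.5 bp), and 17.9% of these MLL1 peaks overlapped that WDR5 peak. In the 1915 domains with 1 of each the size was 537.5 bp (237.5 to 1037.5 bp), and WDR5 lay on the higher side in 52.4% (50.2 to 54.7%). Genome coordinates carry no direction of transcription, and the distances were not turned by gene strand.

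This distance was set beside that between 2 maps of the same factor, which here also differed in treatment or in genotype and treatment. In the 4412 domains with 1 WDR5 peak under MM-401 and 1 in DMSO, the WDR5 centres were a median of 62.5 bp apart (25 to 162.5 bp) and 77.3% (76.1 to 78.5%) of the pairs overlapped. Against WDR5 of the EtOH cells, a separate culture of another genotype, the median was 137.5 bp with 59.0% (57.4 to 60.7%) overlapping, and against WDR5 of the 4OHT cells it was 187.5 bp with 51.3% (49.5 to 53.0%). MLL1 to WDR5 under MM-401, at 537.5 bp and 18.0% (16.4 to 19.8%), was thus farther apart than WDR5 from WDR5 in each of these 3 comparisons. The distance from MLL1 to the WDR5 lists of the other conditions was much the same, at 531.25 bp for DMSO, 550 bp for EtOH and 562.5 bp for 4OHT, with 18.1%, 17.5% and 17.4% overlapping. The contrast with DMSO WDR5 was present in domains of like width: over 2 and up to 3 kb, MLL1 and WDR5 were a median of 525 bp apart and WDR5 and DMSO WDR5 87.5 bp.

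**Figure D4:**
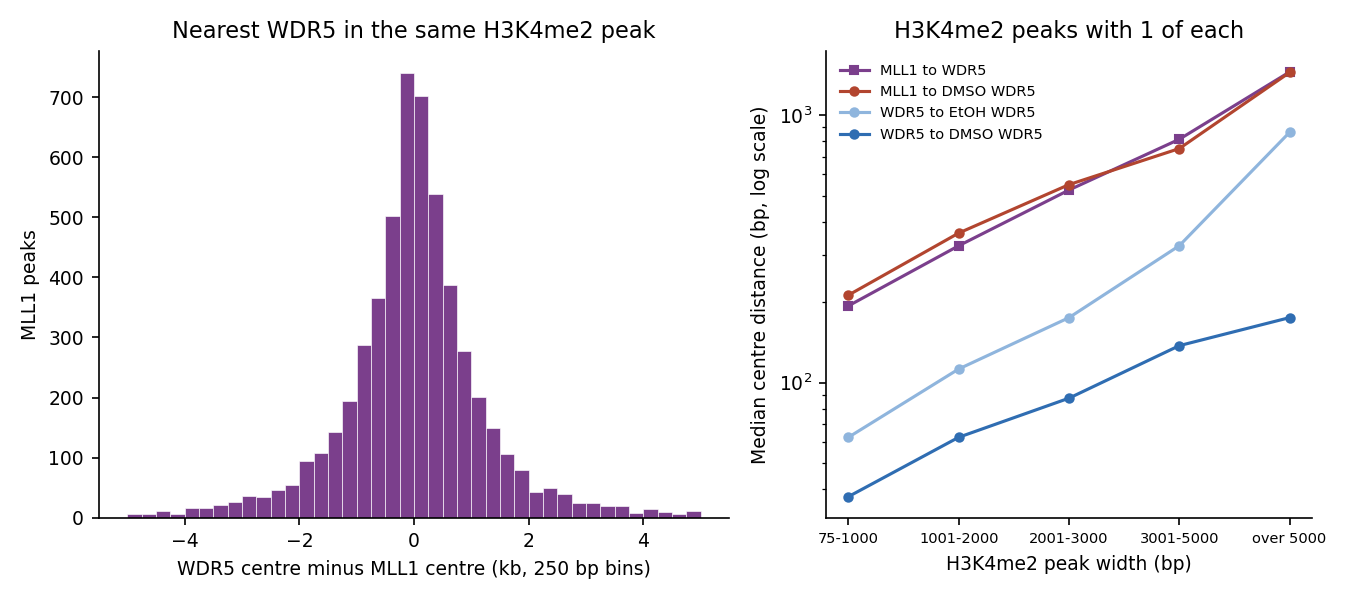
Left, number of MLL1 peaks by the signed centre distance to the nearest WDR5 peak of the same H3K4me2 peak, in kb and bins of 250 bp out to 5 kb, and right, median centre distance in bp (log axis) by H3K4me2 width in domains with 1 peak of each list. The distribution centres on 0 bp, and MLL1 lies farther from WDR5 than WDR5 under MM-401 does from DMSO or EtOH WDR5 in every width class.

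The same held within single domains. In 848 H3K4me2 peaks with 1 MLL1 peak, 1 WDR5 peak under MM-401 and 1 WDR5 peak in DMSO (median width 2525 bp), the 2 WDR5 centres were a median of 100 bp apart, and MLL1 was a median of 537.5 bp from each of them. The MM-401 WDR5 peak was nearer to its DMSO counterpart than to MLL1 in 80.5% (77.7 to 83.0%) of the domains without a tie. MLL1 was nearer to the MM-401 than to the DMSO position of WDR5 in 53.7% (50.3 to 57.2%). In the 285 domains where the WDR5 peaks of the 2 conditions did not overlap, this share was 51.9% (46.1 to 57.7%). Where WDR5 positions differed between the conditions, MLL1 was thus about as often nearer to either of them.

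Both factors favoured the middle of H3K4me2 domains, WDR5 slightly more. In domains over 1000 bp the way from the centre to the edge was split into 5 equal parts. Shares are of the 12634 WDR5 and 10312 MLL1 peaks placed in these parts. The innermost part held 32.6% (31.8 to 33.4%) of WDR5 peaks and 27.3% (26.4 to 28.2%) of MLL1 peaks, and the outermost part held 7.37% and 7.80%. Some peaks that touched these domains were not placed in a part, so the outermost shares do not rank the factors at the edge. In domains with both factors the innermost shares were 28.8% (27.6 to 30.0%) and 26.3% (25.1 to 27.5%), so the gap was smaller there. In the 1915 domains with 1 of each, WDR5 was the nearer to the domain centre in 51.2% (48.9 to 53.4%) of those without a tie. That balance varied with width, from 27.5% (19.4 to 37.4%) in the 96 domains of up to 1 kb to 56.3% (52.3 to 60.2%) over 2 and up to 3 kb.

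The peaks were then looked up in the lists of the other conditions. MLL1 under MM-401 overlapped the WDR5 list of DMSO cells in 3.42% (3.21 to 3.64%) of its peaks, that of EtOH cells in 4.10% and that of 4OHT cells in 4.34%, next to 3.77% for WDR5 under MM-401. These lists differ in length, and with each reduced to its 14289 widest peaks the shares were 3.45% for MM-401, 3.42% for DMSO, 2.89% for EtOH and 2.88% for 4OHT. MLL1 under MM-401 thus met WDR5 of its own condition and WDR5 of DMSO cells to a like extent. The peaks involved were largely different. WDR5 was present under MM-401 and in DMSO at 337 MLL1 peaks, under MM-401 alone at 675 and in DMSO alone at 580. Any of the 4 WDR5 lists reached 2920 MLL1 peaks, or 10.9% (10.5 to 11.3%), and all 4 lists shared 82.

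Over all widths, WDR5 peaks with and without MLL1 were found again in DMSO to a like extent. DMSO WDR5 overlapped, inside H3K4me2, 38.4% (35.4 to 41.4%) of the WDR5 peaks at MLL1 and 36.6% (35.8 to 37.4%) of the rest. Peaks with MLL1 were also wider, at a median of 200 bp against 175 bp. At equal width the order turned, with 45.9% (39.5 to 52.5%) against 52.6% (50.7 to 54.4%) for widths over 200 and up to 300 bp, and the intervals met. In EtOH and 4OHT cells the shares over all widths were higher with MLL1 (32.2% against 28.6%, and 32.0% against 25.2%). Over 200 and up to 300 bp the intervals met again (35.6% against 36.6%, and 36.5% against 31.7%). WDR5 peaks outside H3K4me2 were found in DMSO WDR5 in 16.7% of cases.

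MLL1 peaks chosen for WDR5 under MM-401 also met DMSO WDR5 more often than other MLL1 peaks, a contrast that the choice itself brings. DMSO WDR5 overlapped 33.5% (30.6 to 36.5%) of the MLL1 peaks that held WDR5 under MM-401 in H3K4me2, and 5.47% (5.05 to 5.92%) of those in H3K4me2 without WDR5. The contrast shrank with MLL1 width, from 29.8% (24.5 to 35.7%) against 3.83% (3.27 to 4.47%) at 75 to 100 bp to 27.1% (16.6 to 40.997%) against 15.2% (10.9 to 20.8%) over 300 and up to 500 bp, where the intervals met. Over all widths the first share lies near the 36.6% and 38.4% of WDR5 peaks that were found again in DMSO. These shares count unlike things, MLL1 peaks in the first and WDR5 peaks in the others. A trait of the MLL1 peaks themselves was not tested.

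**Figure D5:**
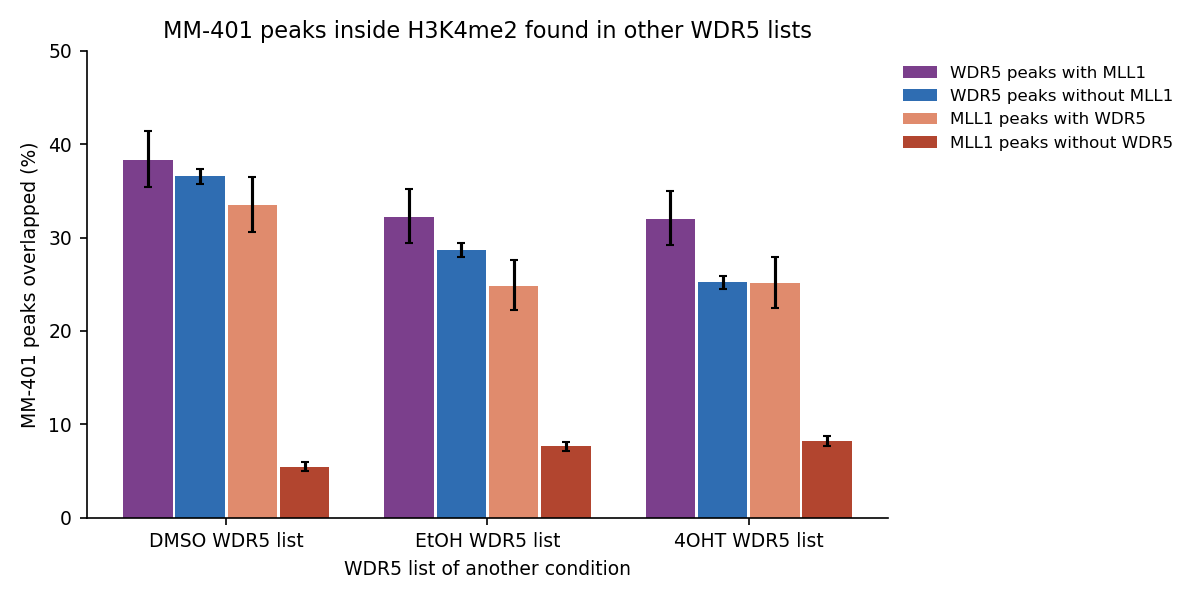
Share of MM-401 peaks inside H3K4me2 overlapped by the WDR5 lists of DMSO, EtOH and 4OHT cells as deposited, with 95% Wilson bars, for WDR5 peaks with (purple) and without (blue) MLL1 and for MLL1 peaks with (light) and without (dark red) WDR5. In the DMSO list the shares are 38.4%, 36.6%, 33.5% and 5.47%.

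The H3K4me2 domains that held a factor were found in the DMSO H3K4me2 list more often than empty ones, and this went with their width. Domains with both were overlapped by H3K4me2 of DMSO cells in 99.8% of cases, those with MLL1 alone in 97.4%, those with WDR5 alone in 96.7% and those with neither in 76.0%. Between 1 and 5 kb the 4 classes were alike, with 99.8% or more of each in the DMSO list, an overlap of 1 bp being easily met at these widths. DMSO WDR5 was held by 63.4% of the domains with both, 51.8% of those with WDR5 alone, 23.2% of those with MLL1 alone and 4.49% of those with neither. Over 1 and up to 2 kb, domains with MLL1 alone held DMSO WDR5 in 16.6% of cases and domains with neither in 11.7%, so a domain called for MLL1 alone under MM-401 had WDR5 in DMSO a little more often than an empty domain of like width.

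Single regions show these classes on the genome. The widest MLL1 peak, at chr17:39979801-39985900, was 6100 bp wide and lay over 9 WDR5 peaks and 6 H3K4me2 peaks, and every WDR5 and H3K4me2 list of the other conditions had a peak there too. The next widest MLL1 peak with WDR5, at chr9:44615726-44616500, was 775 bp wide and had a WDR5 peak with identical ends, and both reached past the right edge of a 750 bp H3K4me2 peak that began at the same base. At chr8:23916551-23917300 an MLL1 peak of 750 bp held 2 WDR5 peaks in an H3K4me2 domain of 5750 bp. The first of these was a continuous MLL1 call over a run of separate WDR5 calls, and no other MLL1 peak was wider than 825 bp. Repeats and regions of high background were not removed here. Whether this first call, met by every WDR5 and H3K4me2 list, marks binding was not tested.

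Among MLL1 peaks in H3K4me2 without WDR5, the widest was chr5:110714351-110715175, 825 bp wide in a domain of 3750 bp and 44525 bp from the nearest WDR5 peak. At chr2:29658501-29659150 the nearest WDR5 peak was 9925 bp away, and at chr13:55548201-55548850 it was 200 bp away. WDR5 of other conditions was closer at the first of these, which overlapped EtOH WDR5 and lay 225 bp from DMSO WDR5, and the second overlapped 4OHT WDR5. The third overlapped none of the WDR5 lists.

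Outside H3K4me2 the widest MLL1 peaks were chr11:108872801-108873450 (650 bp) and chr9:101002701-101003225 (525 bp), and each contained a WDR5 peak, of 125 bp and 425 bp. The H3K4me2 list of EtOH cells had a peak at both positions, that of 4OHT cells at the first and that of DMSO cells at the second. The second also lay 200 bp from an H3K4me2 peak under MM-401, and the first 35500 bp from one. The next, chr1:108802276-108802600, was 325 bp wide, had WDR5 at a distance of 108150 bp and was in no WDR5 or H3K4me2 list of any condition. So the widest outside peaks were among the 20 outside MLL1 peaks at WDR5.

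The widest WDR5 peaks without MLL1 were chr9:106331226-106332525 (1300 bp), chr10:79754976-79756225 (1250 bp) and chr1:16093551-16094775 (1225 bp). All 3 overlapped WDR5 and H3K4me2 in every condition, and the first 2 each touched 2 H3K4me2 peaks. The nearest MLL1 peaks were 34675, 3625 and 1550 bp away.

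The H3K4me2 domain with the most peaks, chr9:32306751-32353175, spanned 46425 bp and held 9 MLL1 and 7 WDR5 peaks. It was followed by chr1:132975326-132995425 with 7 of each and by chr5:123583626-123597175 with 9 MLL1 and 5 WDR5 peaks. Wide domains could also hold a single factor or none. The widest with MLL1 alone, chr2:3630801-3649275 (18475 bp), held 4 MLL1 peaks, and the widest with WDR5 alone, chr9:90126476-90141475 (15000 bp), held 5 WDR5 peaks. The widest with neither, chr11:18904901-18917900, spanned 13000 bp and lay 1825 bp from WDR5 and 8950 bp from MLL1.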

How the data were processed

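ChIP-seq peak positions of MLL1, WDR5 and H3K4me2 under MM-401 were compared on the 19 autosomes. The deposited files are peak lists (chromosome, start, end) that the authors called per library. Score, height and count columns are not in them, so depth per sample is unknown and no precision can be derived from it. The submitters' processing notes name the aligner Bowtie and the build mm9. In 9 of the 10 lists all starts and ends lay on a 25 bp grid, as HPeak writes, and both ends were taken as inclusive, counted from 1. The DMSO MLL1 list had 4.02% of its starts on that grid, came from MACS per the study's methods and was left out of all comparisons. HPeak's settings are not given in the sources used here.

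Overlap meant at least 1 shared bp. Distances ran between peak centres, gaps between nearest ends. An H3K4me2 peak held a factor when a peak of it overlapped, so a peak touching 2 H3K4me2 peaks counted in both. Shares carry 95% Wilson intervals. With 1 library per antibody no test was made. Alternatives allowed gaps of up to 2 kb, required 50% coverage or a centre inside H3K4me2, joined H3K4me2 peaks up to 1 kb apart, kept the widest 50% of lists, equalised list lengths (by width, as no score exists), required 1 peak of each factor per domain or took all chromosomes. Equal lengths for the WDR5 lists of the 4 conditions and the comparison within single domains were added after seeing the data. Named regions were the 3 widest peaks of each class, the 3 H3K4me2 peaks with most MLL1 plus WDR5 peaks and the widest H3K4me2 peak with MLL1 alone, WDR5 alone or neither. The members, lists and comparisons were chosen with earlier results of these data known. The code was tested on simulated data and checked against bedtools 2.31.1; Python 3.11.15, numpy 2.4.6, scipy 1.17.1 and matplotlib 3.10.9 were used. Gene positions, promoters and sequences were not used here, since the gene tables at hand are in another build than the lists, and a planned look-up of named genes was not run.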

Additional observations from a re-analysis of the deposited data

How the results depend on the processing

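Of 45 alternatives over 15 results, 10 stayed within the 95% interval of the main value and 35 moved past it. None turned the order of the factors at H3K4me2. Of the 10, 1 could not move, because the DMSO WDR5 list, with 14289 peaks, set the equal length. Counting peaks up to 2 kb apart gave 21.6% of MLL1 at WDR5, 34.1% of WDR5 at MLL1, 52.6% of MLL1 at H3K4me2 and 93.2% of WDR5 at H3K4me2. With 50% of the peak covered the same 4 shares were 2.37%, 2.82%, 42.2% and 84.8%, and with the widest 50% of each list 3.45%, 5.40%, 51.0% and 89.3%. Equal list lengths gave 4.77% of MLL1 at WDR5 and 4.82% of WDR5 at MLL1. Near-equal shares follow largely from equal lengths by construction, and this setting also dropped the narrowest MLL1 peaks. For the domains, a centre inside H3K4me2 gave 3.997% with both, 8.50% with WDR5 alone and 81.96% with neither. Joining H3K4me2 peaks up to 1 kb apart (51167 domains) gave 7.86% with both, 8.19% with MLL1 alone, 14.3% with WDR5 alone and 69.6% with neither. The widest 50% of MLL1 and WDR5 gave 1.86%, 4.65%, 6.60% and 86.9%, and equal list lengths 3.29%, 4.17%, 10.5% and 82.0%, in the same order. The median distance was 537.5 bp with 1 peak of each, 737.5 bp in joined domains and 687.5 bp with the widest 50%, and the signed median was 37.5 bp with 1 of each. WDR5 lists of equal length gave 2.89% for EtOH and 2.88% for 4OHT. All chromosomes changed no value past its interval. The cause was not tested beyond what each setting changes by construction.

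The lists hold no heights, so calls were ranked by width alone and no amount of binding was compared. The difference between MLL1 and WDR5 also compares 2 antibodies and 2 libraries, which cannot be told apart from the factors. No paired analysis was possible because each antibody had 1 library and the labels carry no replicate numbers.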

Other observations

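Under MM-401, MLL1 and WDR5 peaks were both frequent on chromosome 1 and differed in their shares of chromosomes 2, 9 and 17. Chromosome 1 held 10.7% (10.4 to 11.1%) of MLL1 peaks and 10.951% (10.5 to 11.4%) of WDR5 peaks, but 7.44% (7.27 to 7.61%) of H3K4me2 peaks. Chromosome 9 held 3.55% (3.34 to 3.78%) of MLL1 peaks, 4.86% (4.54 to 5.19%) of WDR5 peaks and 5.73% of H3K4me2 peaks, and chromosome 17 held 2.89% (2.70 to 3.10%), 4.05% (3.77 to 4.36%) and 3.86%. The number of MLL1 peaks per WDR5 peak ran from 1.12 on chromosome 17 and 1.15 on chromosome 9 to 2.05 on chromosome 2, which held 8.67% (8.34 to 9.01%) of MLL1 peaks and 6.64% (6.27 to 7.02%) of WDR5 peaks. Inside H3K4me2 the ratio was lowest on chromosome 9 (0.603), followed by chromosome 1 (0.618), with 0.665 on chromosome 17 and the highest value, 0.992, on chromosome 2. The DMSO WDR5 list had 1201 of its 14289 peaks on chromosome 2, against 1133 of 17067 under MM-401. The low WDR5 share of chromosome 2 was thus not seen in DMSO. On chromosomes 9 and 17, where MLL1 had the lower share, the DMSO list held 722 and 535 peaks. On chromosome 1 it held 1542, against 1869 under MM-401, so the high WDR5 share there was present in DMSO too. The share of MLL1 peaks inside H3K4me2 ran from 35.3% (33.6 to 37.0%) on chromosome 1 to 55.9% (52.3 to 59.4%) on chromosome 19, while that of WDR5 stayed between 85.0% (chromosome 15) and 91.7% (chromosome 19).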
